A study of Rattus norvegicus with 10 samples.

Results

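Histone gene expression was described in 10 male rats aged 11 months of the TgF344-AD strain, a transgenic model of Alzheimer's disease, from RNA of the left hippocampus. The histone genes were taken by name, as every gene of the count table whose symbol starts with Hist and a cluster number, or with H2af, H3f3 or H1f, which gave 32 of 17168 genes. Of these, 24 carry the Hist prefix and are called replication-dependent here from that prefix alone, and 8 are variant genes. The variants H1fx, H2afv and H3f3a and the linker histone gene Hist1h1c were looked for by name. None is among the genes counted, so neither class is complete. The 5 untreated rats ate plain rodent chow, and the 5 RG2833 rats ate chow with 750 mg per kg of RG2833, a drug that inhibits the deacetylases HDAC1 and HDAC3. Treatment began at 5 months and lasted 6 months, and all 10 rats, untreated ones included, carry the genotype Tg-AD. In the sentence on timing the design text names ibudilast, while the title and the labels of the treated samples name RG2833, and these were followed. Each library is labelled as 1 animal, and nothing in the labels gives the litter, cage or extraction day.

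Histones are the proteins that DNA is wound around, and histone deacetylases remove acetyl groups from their tails. Replication-dependent histone genes lie in clusters, have no introns and are made mainly while a cell copies its DNA. Their mRNAs end in a stem-loop in place of the poly(A) tail, although some of these genes are also known to give polyadenylated transcripts in cells that no longer divide. Most variant histone genes lie alone, are transcribed outside DNA replication as well, and give mRNAs with a poly(A) tail, although H2afx is known to give both kinds of mRNA. Neurons of the adult hippocampus do not divide, so variants such as the H3 protein encoded by H3f3b replace the replication-dependent forms in them over time. The libraries were made with a stranded mRNA kit, and ribosomal RNA, which has no poly(A) tail, was measured in each of them.

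The start regions of the histone genes were searched for known promoter elements, and 5 replication-dependent and 3 variant genes are shown as examples. They are genes with many counts of their class, Hist1h4b among them without a match, and Hist1h1a and Hist2h2ab from other protein types or clusters; Hist1h2bh, whose name fell to several RefSeq genes, is not shown. Each is the 150 bases before the RefSeq gene start in GRCr8, read 5′ to 3′ on the strand of the gene, except Hist3h2a with 250 bases, because that region also runs back to the start of Hist3h2bb. Capitals mark the CCAAT box, the TATA motif (searched as TATAAA) and the octamer (searched as ATTTGCAT), each on either strand.
Hist3h2ba, chr10:44225271-44225420, plus strand: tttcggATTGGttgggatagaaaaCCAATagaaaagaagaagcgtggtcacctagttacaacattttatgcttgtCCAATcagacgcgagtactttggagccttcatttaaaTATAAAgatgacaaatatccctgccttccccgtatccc
Hist1h4b, chr17:47176096-47176245, plus strand: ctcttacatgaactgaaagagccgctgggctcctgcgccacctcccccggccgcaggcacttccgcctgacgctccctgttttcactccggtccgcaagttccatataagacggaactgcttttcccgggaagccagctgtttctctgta
Hist1h1a, chr17:41794869-41795018, minus strand: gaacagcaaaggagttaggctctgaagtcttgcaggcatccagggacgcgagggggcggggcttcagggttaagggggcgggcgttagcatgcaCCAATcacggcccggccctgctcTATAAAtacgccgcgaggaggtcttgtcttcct
Hist2h2ab, chr2:186468074-186468223, plus strand: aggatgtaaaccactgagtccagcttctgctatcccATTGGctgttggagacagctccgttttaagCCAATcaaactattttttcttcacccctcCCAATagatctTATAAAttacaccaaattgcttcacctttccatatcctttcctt
Hist3h2a, chr10:44233033-44233282, plus strand: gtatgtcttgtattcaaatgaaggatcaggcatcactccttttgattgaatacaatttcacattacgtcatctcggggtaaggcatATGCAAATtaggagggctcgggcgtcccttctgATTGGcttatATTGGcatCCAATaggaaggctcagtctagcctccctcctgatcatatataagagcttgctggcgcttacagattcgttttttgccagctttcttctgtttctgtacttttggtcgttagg
H3f3b, chr10:101757637-101757786, minus strand: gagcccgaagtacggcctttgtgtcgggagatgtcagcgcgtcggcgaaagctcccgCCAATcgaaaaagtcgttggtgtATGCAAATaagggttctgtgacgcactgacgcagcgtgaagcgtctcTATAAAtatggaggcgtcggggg
H2afz, chr2:229028945-229029094, plus strand: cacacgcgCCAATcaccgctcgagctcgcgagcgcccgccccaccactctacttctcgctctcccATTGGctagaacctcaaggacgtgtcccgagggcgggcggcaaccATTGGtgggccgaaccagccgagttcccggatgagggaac
H1f0, chr7:112473130-112473279, plus strand: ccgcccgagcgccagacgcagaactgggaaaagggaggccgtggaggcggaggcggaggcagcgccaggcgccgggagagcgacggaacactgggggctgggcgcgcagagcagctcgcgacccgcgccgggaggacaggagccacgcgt

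Of the 32 histone genes, 27 had a start region in the RefSeq table, 20 replication-dependent and 7 variant, while the names of 4 others each fell to several RefSeq genes. In the 250 bases before the start, CCAAT was found on either strand in 18 of 20 replication-dependent genes (90.0%), in 4 of 7 variant genes (57.1%) and in 34.3% of all 27457 regions of that length. TATAAA was found in 11 of 20 (55.0%), in 1 of 7 (14.3%) and in 13.1% of all regions. Several of these matches lie far upstream or on the other strand, and on the strand of the gene, with all its letters between 40 and 20 bases before the start, it was found in 5 of 20 (25.0%), in 0 of 7 and in 1.3% of all regions. The match of H3f3b on that strand begins 23 bases before the start and so runs past this window. The octamer, an element of H2A and H2B promoters, was found in 8 of 20 (40.0%), in 1 of 7 (14.3%) and in 1.5% of all regions. The 3 motifs are not contained in one another. H3f3b was the variant gene with TATAAA and with the octamer, and H1f0, H2afy and H2afy2 held no match to any of the 3. Neither did the H4 genes Hist1h4b and Hist1h4m. A match gives letters in a window, and no binding was measured. The divergent neighbours Hist3h2a and Hist3h2bb share 217 bases of these regions, and Hist1h2aa and Hist1h2ba share 239, so the regions within each pair are not independent.

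Total expected counts ran from 15118203 to 18533520 per library, and ribosomal RNA took from 4.07% to 11.41% of them. Markers of hippocampal pyramidal and granule neurons were found in every library, with a sum of 5310 to 7670 CPM over 11 genes that Nptxr, Slc17a7 and Camk2a carried for the most part (CPM being counts scaled to a common library size by the trimmed mean of M values). Of the libraries, 2 stood apart by choroid plexus, the epithelium that makes cerebrospinal fluid: the 7 markers summed to 7640 CPM in untreated replicate 2 and 8970 CPM in RG2833 replicate 1, against 7.61 to 268 CPM in the other 8. Untreated replicate 3 had the most ribosomal RNA and the most microglial marker RNA, at 994 CPM over 8 genes, where the other 9 libraries ran up to 799 CPM. It also had the lowest level of 6 of the 11 neuron markers. Among these, Prox1, a marker of granule neurons, was at 4.3 CPM against 21.5 to 50.5 CPM in the other 9, C1ql2 at 7.1 against 38.2 to 142, and Neurod6, of pyramidal neurons, at 42.1 against 81.7 to 254. Fibcd1 was at 35.5 against 82.3 to 303, and Grik4 at 29.5 against 59.1 to 137. The sixth, Slc17a7, was at 1030 against 1100 to 1920. The other 5 were not low there: Calb1 was at 90.6 CPM against 65.7 to 80.3, Camk2a at 1910 against 1570 to 2200, Nptxr at 2390 against 1340 to 2600, Wfs1 at 298 against 135 to 390 and Mpped1 at 285 against 156 to 369. In tissue libraries such as these, fewer cells of a type and less RNA per cell cannot be told apart.

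Variant histone genes made up most of the histone counts and differed little between animals. Their summed level was 542, 573, 505, 558 and 577 CPM in untreated replicates 1 to 5, and 544, 542, 544, 525 and 535 CPM in RG2833 replicates 1 to 5. The groups overlapped throughout, at 551 ± 29.0 CPM (SD) in untreated and 538 ± 8.26 CPM in treated rats (n = 5 each). The 24 replication-dependent genes together reached 96.3, 117, 76.4, 102 and 102 CPM in untreated and 121, 99.8, 103, 91.5 and 94.8 CPM in RG2833 replicates 1 to 5. Their means were 98.6 ± 14.5 and 102 ± 11.6 CPM (n = 5 each), and the ranges overlapped. Set against the variant sum of the same library, replication-dependent genes stood at 15.1% in untreated replicate 3 and at 22.3% in RG2833 replicate 1, the lowest and the highest. Read counts were not divided by transcript length, so this ratio compares libraries and not the levels of the classes.

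The replication-dependent counts came from few of the genes counted. Hist1h2bh, which encodes an H2B, held 27.4% of the summed CPM of the class, Hist3h2ba, another H2B, 24.5%, Hist3h2a, an H2A, 19.3%, and Hist1h4b, an H4, 10.3%. In each protein type the groups overlapped. The sums cover 8 H2B, 7 H2A, 3 H4 and 4 H1 genes, and for H3 Hist2h3c2 and Hist3h3 alone. They depend on which genes of a type were counted, so they do not compare the levels of the types. H2B genes summed to 52.2 ± 7.61 CPM in untreated and 56.2 ± 5.89 CPM in treated rats (n = 5 each). H2A genes summed to 29.1 ± 3.81 and 27.9 ± 2.65 CPM, H4 genes to 10.5 ± 3.21 and 10.6 ± 2.53 CPM, linker H1 genes to 5.71 ± 1.19 and 6.30 ± 0.672 CPM, and H3 genes to 1.03 ± 0.331 and 1.05 ± 0.361 CPM.

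After the filter on low counts, 19 of the 32 genes were tested, 12 of 24 replication-dependent and 7 of 8 variant. The remaining 13 had too few counts in these mRNA libraries to pass it, which does not show how much they are expressed. Hist1h4m and H2afb3, the latter an H2A variant known from testis, had 0 counts in all 10 libraries, where a floor of 3 counts corresponds to 0.162 to 0.198 CPM and covers counting error only. The other 11 never exceeded 12.51 counts in a library. Among them were genes known from the male germ line, with at most 10 counts for Hist1h1t, 10.9 for Hist1h2aa, 3.69 for Hist1h2ba and 2 for Hist3h3. Hist3h2bb had 2.19 counts in 1 library and 0 in the other 9, while Hist3h2a, across the shared start region shown above, had 252.84 to 410.49.

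Many replication-dependent genes are near copies of one another, and their counts are therefore uncertain. RSEM, the program behind these counts, divides reads that align to several genes, which leaves counts that are not whole. Of the values above 0, 66.5% were not whole in replication-dependent and 42.9% in variant genes, against 14.6% over all genes (whole meaning within 0.005). All 10 values were fractional for Hist1h2bh, Hist3h2a, Hist1h1a, Hist1h1d, Hist1h2ak, Hist1h2an, Hist1h2bk and Hist1h2bo. Hist2h2ab had 1 such value, Hist1h4b 2, Hist2h3c2 3 and Hist3h2ba 4. Among variants, H1f0, H2afy, H2afz and H3f3b had whole counts in all 10 libraries, and H2afj, H2afx and H2afy2 in none.

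Treatment with RG2833 gave no called difference in any histone gene. The comparison asks how the drug changed expression in transgenic males. With edgeR's quasi-likelihood test over 12161 genes, 0 of the 19 tested histone genes and 0% of all genes had an adjusted p under 0.05. At an unadjusted p under 0.05 there was 1 histone gene (5.26%), higher under RG2833, against 5.66% of all genes tested (2.94% higher and 2.71% lower), and DESeq2 called 6 genes at an adjusted p under 0.05, none of them a histone gene. The log2 fold change was above 0 in 5 and below 0 in 7 of the 12 replication-dependent genes, with a median of -0.016; the 4 tested H2A genes were all below 0 and the 2 tested H1 genes above. It was above 0 in 1 and below 0 in 6 of the 7 variants, with a median of -0.056. Over all genes tested the median was -0.011 and the median size 0.09. Without untreated replicate 3 the medians were -0.103 for replication-dependent genes and -0.0996 for variants, and again no histone gene passed. With 1 library left out the medians ran from -0.107 to 0.0732 for replication-dependent genes and from -0.0996 to -0.031 for variants. In 0 of the 19 genes were the CPM values of the groups apart, against 1.00% of all genes.

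**Figure D1:**
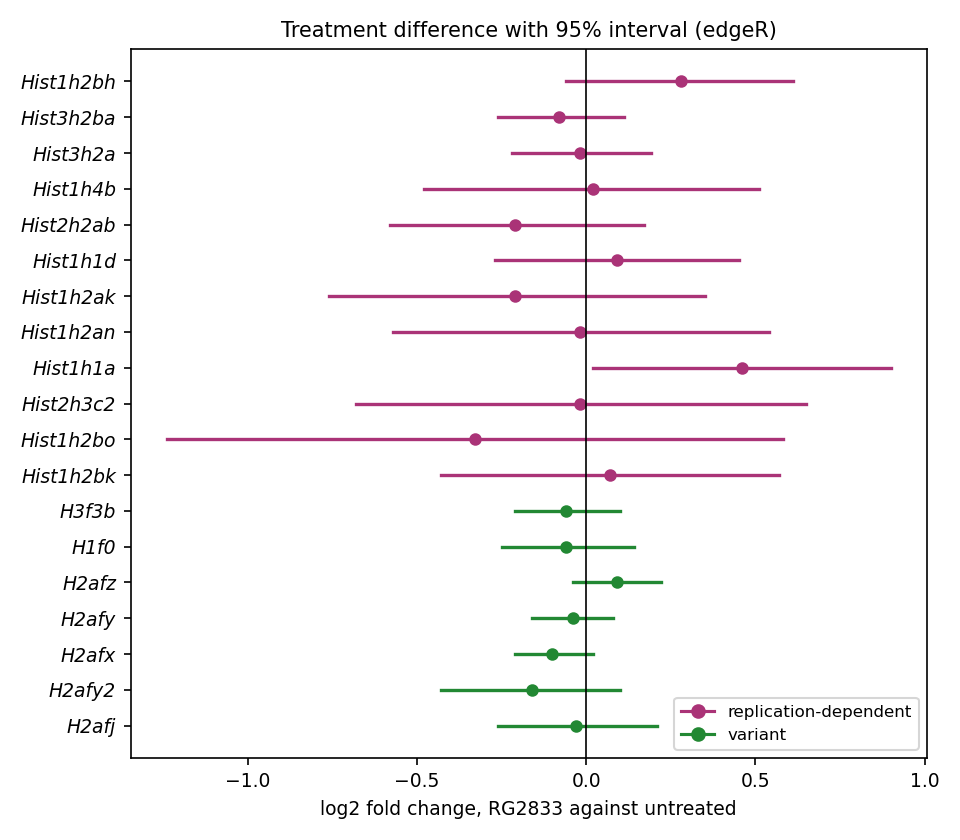
Log2 fold change of RG2833 against untreated (x axis, edgeR, with 95% interval) for the 12 tested replication-dependent and 7 tested variant histone genes, each class in order of mean CPM, n = 5 rats per group. The intervals run from -0.21 to 0.10 for H3f3b and from -1.24 to 0.58 for Hist1h2bo, and 18 of the 19 intervals hold 0; the exception is Hist1h1a, from 0.02 to 0.90.

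Among variants, H3f3b encodes the H3 form that is placed into chromatin outside replication. It stood at 207, 231, 185, 230 and 228 CPM in untreated and at 214, 217, 206, 200 and 203 CPM in RG2833 replicates 1 to 5. The RG2833 values lay inside the untreated range, and the fold change was 0.962 with a 95% interval of 0.863 to 1.07. H1f0 encodes a linker histone that accumulates in differentiated cells. Its CPM was 104, 106, 78.1, 87.3 and 99.9 in untreated and 93.8, 91.0, 97.9, 84.9 and 89.4 in treated rats. Again the treated values fell inside the untreated range, which was the wider one (fold change 0.961, interval 0.84 to 1.10).

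H2afz, a variant gene for H2A.Z at promoters and enhancers, was the only tested variant with a higher mean under RG2833. Its CPM was 82.1, 82.4, 79.7, 88.3 and 93.5 in untreated and 91.7, 91.1, 95.3, 88.9 and 86.9 in treated rats. Untreated replicates 1, 2 and 3 lay under every treated value, untreated replicates 4 and 5 did not, and the log2 fold change was 0.09 (SE 0.06, edgeR adjusted p = 0.852). H2afx encodes H2A.X, which is phosphorylated around DNA breaks, and read 31.5, 32.5, 31.9, 33.7 and 33.5 CPM in untreated and 32.1, 29.9, 29.7, 31.8 and 28.8 CPM in treated rats. Of the treated libraries, 3 lay below all untreated ones. The log2 fold change was -0.10 (SE 0.05, edgeR adjusted p = 0.841), and the two-sided exact permutation p of this single gene, unadjusted, was 0.0397. Because counts of H2afx were fractional in all libraries, its reads were divided with another gene and the value is uncertain.

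The macroH2A genes H2afy and H2afy2 encode H2A forms with a large extra domain. H2afy read 88.2, 87.5, 95.7, 84.0 and 88.5 CPM in untreated and 81.8, 82.7, 87.9, 86.4 and 92.4 CPM in treated rats, with overlapping groups (log2 fold change -0.04, SE 0.06). H2afy2 read 15.6, 15.8, 20.6, 20.3 and 15.2 CPM in untreated and 14.8, 14.4, 13.7, 18.3 and 16.9 CPM in treated rats. Its 2 highest values were both untreated, replicates 3 and 4, and the log2 fold change was -0.16 (SE 0.12, edgeR adjusted p = 0.893). H2afj, close in sequence to canonical H2A, ran from 13.4 to 18.0 CPM in untreated and from 13.0 to 17.1 CPM in treated rats (log2 fold change -0.03, SE 0.11).

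**Figure D2:**
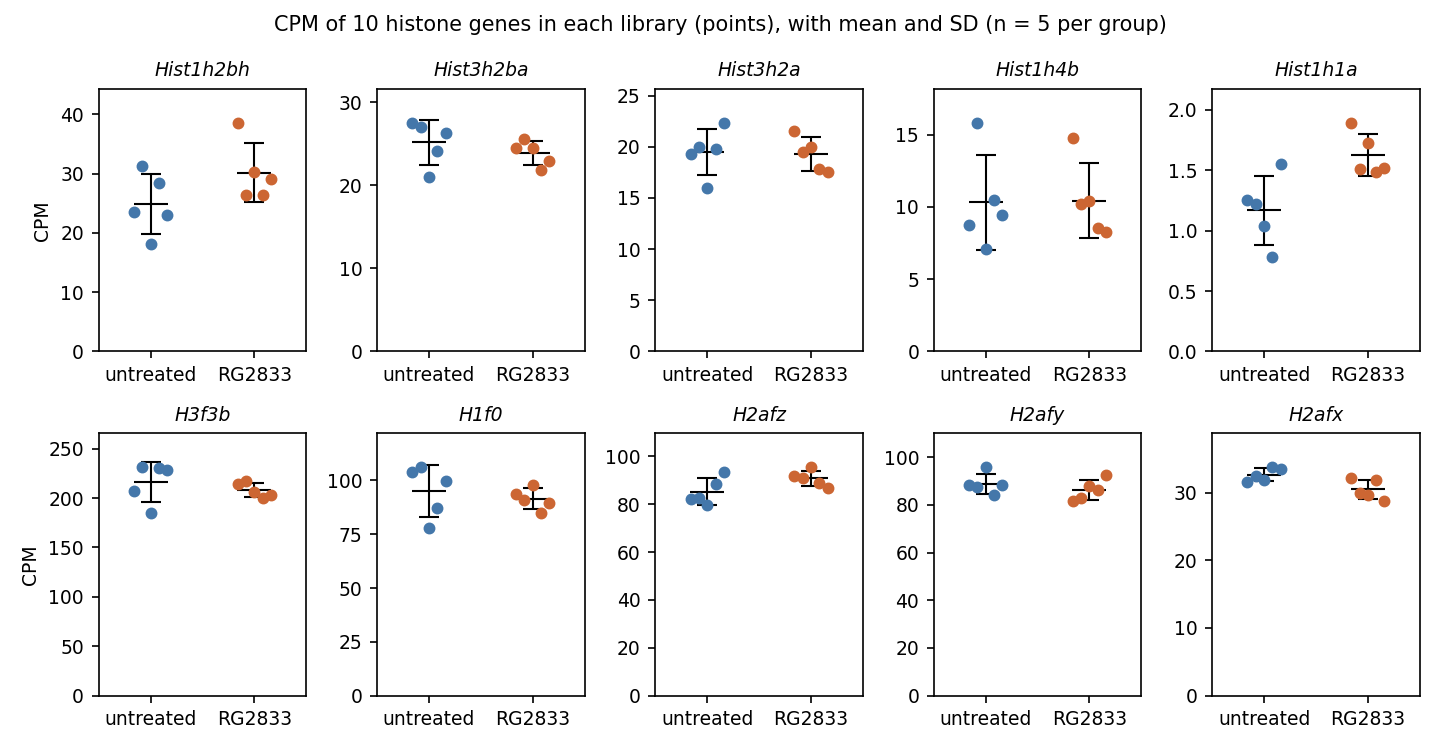
CPM (y axis, from 0) of 5 replication-dependent genes (top) and 5 variant genes (bottom) in each untreated and RG2833 library, with mean and SD, n = 5 per group. In every panel the groups overlap. Points that stand off include Hist1h4b in untreated replicate 2 and RG2833 replicate 1, at 15.8 and 14.8 CPM. Hist1h2bh in RG2833 replicate 1, at 38.5 CPM, is another.

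Among replication-dependent genes, Hist1h2bh read 23.5, 31.3, 18.1, 28.4 and 23.0 CPM in untreated and 38.5, 26.4, 30.3, 26.4 and 29.1 CPM in treated rats. Both groups spread widely, and RG2833 replicate 1 was the highest library. The log2 fold change was 0.28 (SE 0.15, 95% interval -0.06 to 0.61, edgeR adjusted p = 0.841), and with 1 library left out it ran from 0.17 (without RG2833 replicate 1) to 0.37 (without untreated replicate 2). Hist3h2ba read 27.5, 27.1, 21.0, 24.1 and 26.3 CPM in untreated and 24.5, 25.6, 24.5, 21.9 and 23.0 CPM in treated rats. Its treated values lay within the untreated range (log2 fold change -0.08, SE 0.08). Hist3h2a read 19.3, 20, 16, 19.8 and 22.3 CPM in untreated and 21.5, 19.5, 20, 17.8 and 17.5 CPM in treated rats, again inside the untreated range (log2 fold change -0.02, SE 0.09).

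Hist1h4b, the H4 gene with enough counts to be tested, read 8.77, 15.8, 7.10, 10.5 and 9.45 CPM in untreated and 14.8, 10.2, 10.4, 8.52 and 8.30 CPM in treated rats. One library in each group was far above the others, and the group means were 10.3 ± 3.29 and 10.4 ± 2.61 CPM (n = 5 each). The fitted log2 fold change of 0.02 (SE 0.22) became 0.22 when untreated replicate 2 was left out and -0.14 when RG2833 replicate 1 was. Hist2h2ab, an H2A gene, ran from 3.46 to 6.30 CPM in untreated and from 3.67 to 5.23 CPM in treated rats (log2 fold change -0.21, SE 0.17). Hist1h1d, a linker histone gene, ran from 3.20 to 5.69 and from 3.83 to 4.85 CPM (log2 fold change 0.09, SE 0.16). With 1 library left out its change ran from 0.02 (untreated replicate 3 out) to 0.24 (untreated replicate 2 out).

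Hist1h1a, a linker histone gene, was the histone gene with an unadjusted p under 0.05. It read 1.25, 1.22, 1.04, 0.781 and 1.55 CPM in untreated and 1.89, 1.51, 1.73, 1.49 and 1.52 CPM in treated rats, from 12.75 to 29.21 counts per library. Of the untreated libraries, 4 lay below all treated ones, and untreated replicate 5 lay among them. The log2 fold change was 0.46 (SE 0.20), a fold of 1.38 with a 95% interval of 1.02 to 1.87. It did not pass over all genes (edgeR adjusted p = 0.841; unadjusted p = 0.0408; two-sided exact permutation p = 0.0317, where 0.00794 is the smallest possible). In 8 of the 10 fits that each left out a library, no histone gene had an unadjusted p under 0.05. The other 5 tested replication-dependent genes, Hist1h2ak, Hist1h2an, Hist1h2bk, Hist1h2bo and Hist2h3c2, had log2 fold changes from -0.33 for Hist1h2bo (SE 0.41) to 0.07 for Hist1h2bk (SE 0.23). With 1 library left out these values moved widely, for Hist1h2bo from -0.57 (without untreated replicate 3) to -0.09 (without untreated replicate 2) and for Hist1h2ak from -0.34 to -0.02. Their levels ran from 0.261 to 1.5 CPM for Hist1h2bo, 0.512 to 0.98 for Hist1h2bk, 0.704 to 1.57 for Hist2h3c2, 1.12 to 2.45 for Hist1h2an and 1.29 to 3.16 for Hist1h2ak, with overlapping groups. At mean counts of 12.3 to 33.5 per library the intervals are wide, from -1.24 to 0.58 for Hist1h2bo.

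The spread of each gene over the libraries was set beside its counting error. The coefficient of variation of CPM over the 10 libraries had a median of 21.7% in the 12 tested replication-dependent genes (range 8.76 to 42.3%) and 7% in the 7 variants (4.84 to 14.7%), against 13.3% over all genes tested. The classes differ in mean count, and their spreads were not tested against each other. Counting error alone would give 4.67% for Hist1h2bh and 7.56% for Hist1h4b, where 20% and 27.0% were observed. For Hist1h1a counting error alone would give a coefficient of 20.7%, and 23.5% was observed. Hist2h3c2 had 32.8% beside 24% from counting, and Hist1h2bk had 18.8%, less than the 28.6% from counting. Hist3h2ba and Hist3h2a, with mean counts of 413 and 325, were the steadiest of the class at 8.76% and 9.63%. H2afx was at 5.11%, where counting error alone gives 4.35%.

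**Figure D3:**
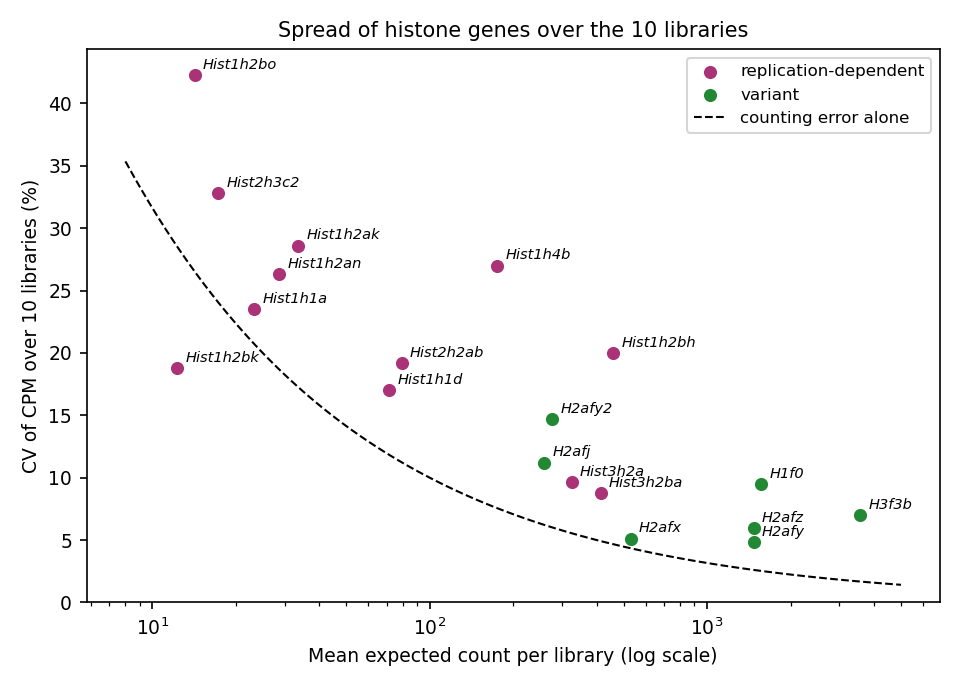
Coefficient of variation of CPM over the 10 libraries (y axis, %) against mean expected count per library (x axis, log scale) for the 19 tested histone genes; the dashed line is the spread from counting error alone. Hist1h4b at 27.0% and Hist1h2bh at 20% lie far above the line, and H2afx at 5.11% lies next to it.

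A few libraries held most of the extreme values of the replication-dependent genes. Untreated replicate 3 was the lowest library for 7 of the 12 tested genes, and among the 7 variants it was the lowest for 3 (H1f0, H2afz and H3f3b) and the highest for 2 (H2afy and H2afy2). The part of its ribosomal, microglial and neuron marker RNA, given above, in these values was not tested. The share of all genes with their lowest level in this library was not counted. Untreated replicates 2 and 5 were each the highest for 4, RG2833 replicate 1 for 3 and untreated replicate 1 for 1. The summed class level was highest in the 2 libraries with choroid plexus RNA, at 117 and 121 CPM, against 76.4 to 103 CPM in the other 8. Both of these libraries lay above the median of the other 8 in 11 of the 12 replication-dependent genes (91.7%), in 4 of 7 variants (57.1%) and in 37.3% of all genes tested. They lay above all of the other 8 for Hist1h4b, Hist1h2bh and Hist1h2bo, which is 3 of 12 replication-dependent genes (25.0%), against 0 of 7 variants and 8.26% of all genes. The 2 libraries were looked at because of their choroid plexus markers, and the part of that tissue in the histone values was not tested.

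**Figure D4:**
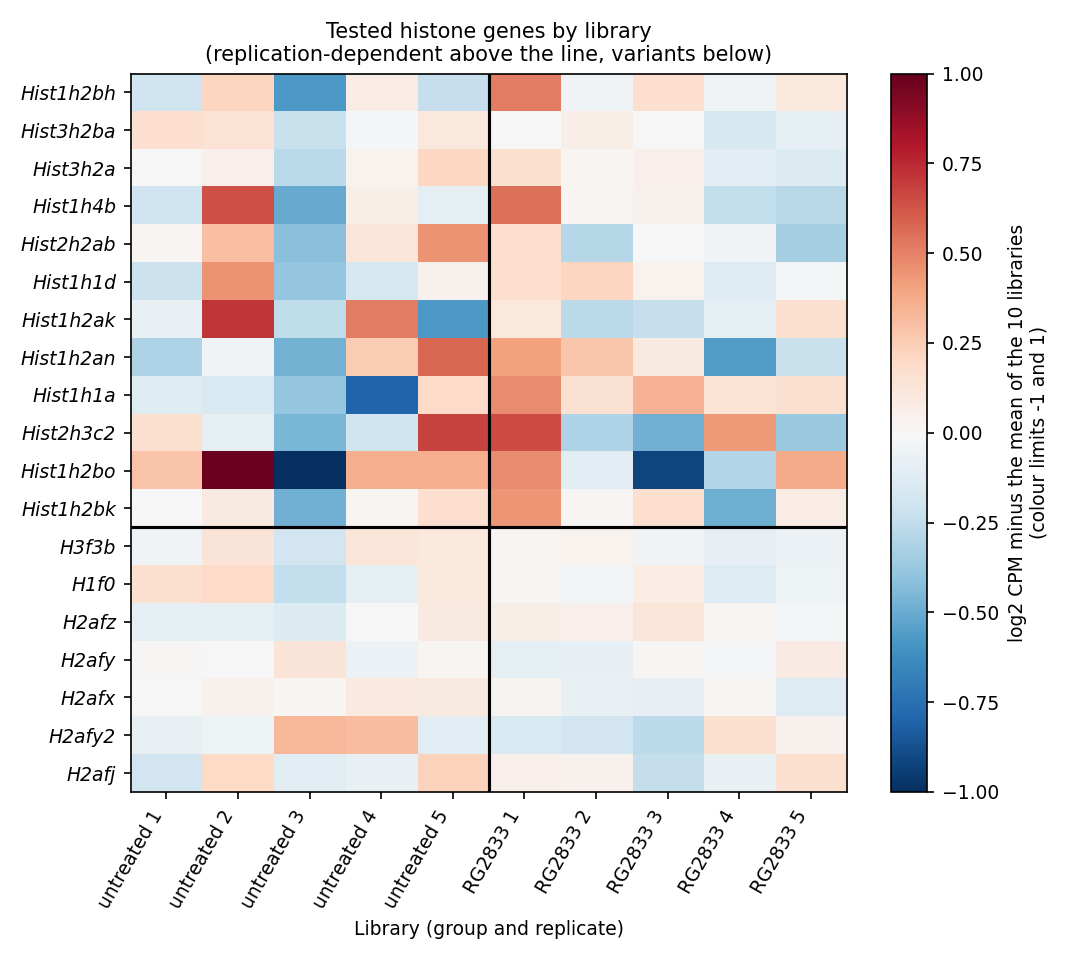
Log2 CPM of each tested histone gene minus its mean over the 10 libraries (colour, from -1 to 1, with values beyond shown at the end colour), for libraries in columns and genes in rows. Untreated replicate 3 is blue for most replication-dependent genes, being the lowest library in 7 of 12, and the variants below the line are pale across all libraries.

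The 29 S phase and proliferation genes in the table, such as Mki67, Pcna and the Mcm helicase genes, summed to 324 CPM in untreated replicate 2 and 295 CPM in RG2833 replicate 1, and to 304 to 320 CPM in the other 8. Of the 324 CPM, Gins2 gave 85.5, its highest level in any library. Gins2, Ccnd1, Pcna, Rrm1, Mcm4 and Mcm7 carried most of the S phase sum. Markers of dividing cells and newborn neurons summed to 58.3 CPM in untreated replicate 2 and 53.0 CPM in RG2833 replicate 1, and to 50.8 to 68.8 CPM in the other 8. Dcx and Neurod1 carried most of that sum, while Mki67 and Top2a never exceeded 5.92 and 2.27 CPM. Gene by gene, the tested S phase genes had a median coefficient of variation of 18.3% (5 to 79.9%).

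Histone levels were next set against the ribosomal RNA share of each library, with treatment kept in the model. The share did not separate the groups, at 6.83 ± 3.01% in untreated and 7.50 ± 2.07% in treated rats (n = 5 each), with overlapping ranges. All 12 tested replication-dependent genes had a negative slope, that is, lower levels in libraries with more ribosomal RNA, against 53.5% of all genes. The median slope was -0.061 on the log2 scale per percentage point of ribosomal RNA, with a range from -0.193 for Hist1h2bo to -0.031 for Hist1h1a. With upper-quartile scaling they were again 12 of 12, against 48.3% of all genes, and with no filter on low counts 17 of 23 replication-dependent slopes were negative. Of the 7 variants 5 had a negative slope (3 of 7 with upper-quartile scaling), with a median of -0.003, and the median over all genes was -0.005. With edgeR's quasi-likelihood test, 1 of the 19 histone genes, Hist3h2ba, had a slope with an adjusted p under 0.05, in the negative direction, against 2.61% of all genes in that direction and 9.83% in both.

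The slope of Hist3h2ba was -0.045 (SE 0.012, edgeR adjusted p = 0.0488), and its level of 21.0 CPM in untreated replicate 3, the library with the most ribosomal RNA, was the lowest of the 10. This call was lost in 8 of the 10 fits that each left out a library, with an adjusted p of 0.496 without untreated replicate 3, while the slope ran from -0.0477 to -0.0329 over the 10 fits. Hist1h4b had a slope of -0.11 (SE 0.037, adjusted p = 0.0714) and Hist1h2bh one of -0.066 (SE 0.028, adjusted p = 0.129). Hist1h2bo had one of -0.193 (SE 0.078, adjusted p = 0.108). Without untreated replicate 3 the slope was -0.0847 for Hist1h2bo and -0.0371 for Hist1h2bh. That of Hist1h4b ran from -0.142 to -0.0767 with 1 library left out. Among variants, H1f0 was lower with more ribosomal RNA (slope -0.042, SE 0.014, adjusted p = 0.0745) and H2afy2 higher (0.051, SE 0.021, adjusted p = 0.12), and neither passed with all libraries. Without RG2833 replicate 3 both did (edgeR adjusted p = 0.027 and 0.0491). Without untreated replicate 3 the slope of H1f0 was -0.0233.

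**Figure D5:**
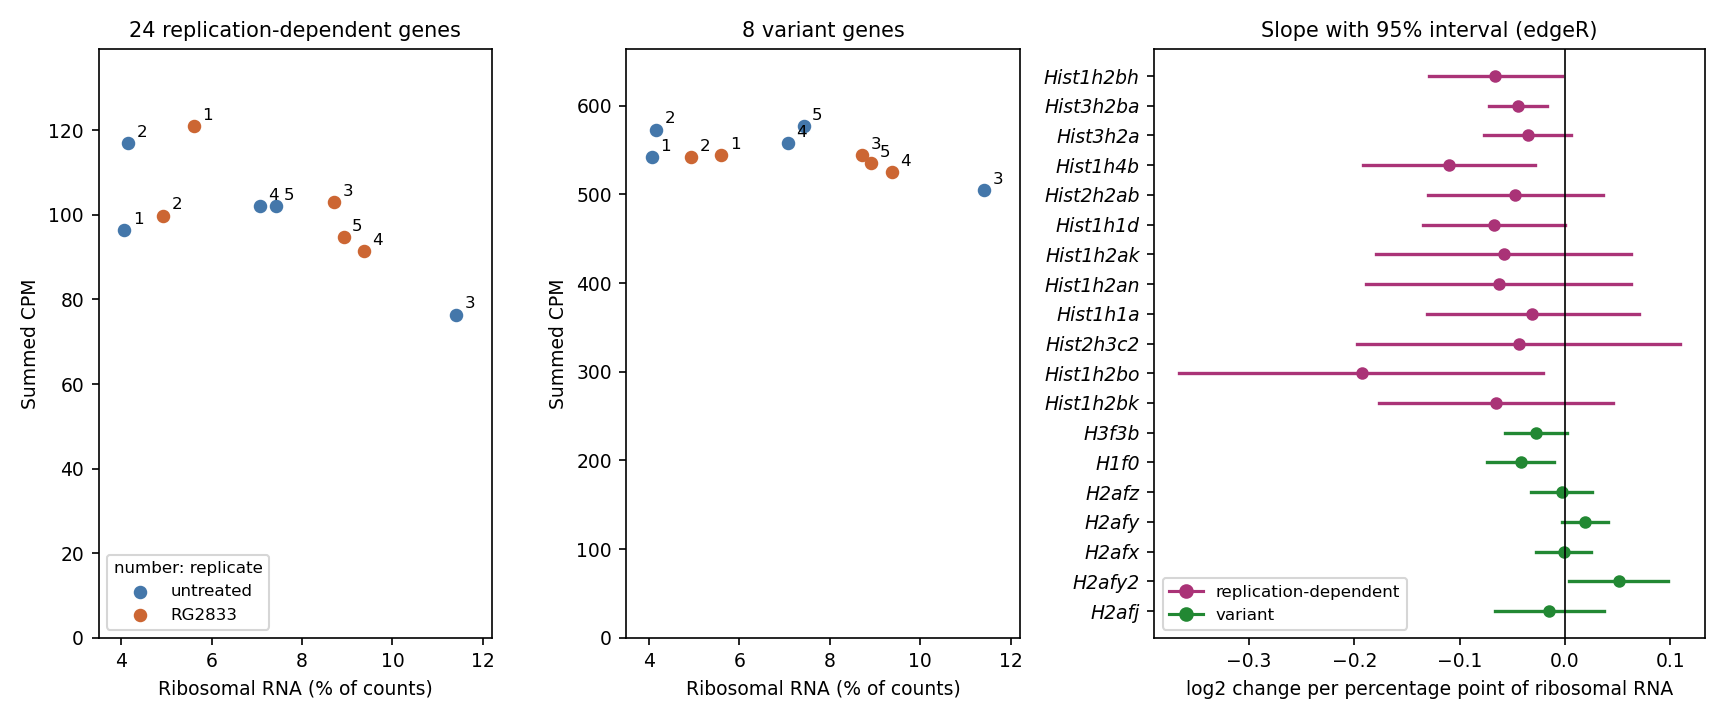
Summed CPM (y axes, from 0) of the 24 replication-dependent (left) and 8 variant histone genes (middle) against the ribosomal RNA share of the library (x axis, %), with replicate numbers beside the points, and the slope of each tested gene with its 95% interval (right). All 12 replication-dependent slopes lie below 0, and untreated replicate 3, at 11.41%, has the lowest sum in both classes, 76.4 and 505 CPM.

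At an unadjusted p under 0.05, 5 histone genes had a negative slope (Hist1h2bh, Hist1h2bo, Hist1h4b, Hist3h2ba and H1f0), against 17.8% of all genes, and 1 a positive slope (H2afy2), against 17.6%, which makes 6 in all, against 35.4%. Without untreated replicate 3, 0 of the 19 had an unadjusted p under 0.05, 10 of the 12 replication-dependent slopes were negative, and their median was -0.032. Over all genes, 1195 slopes passed with all libraries, 878 positive and 317 negative, and DESeq2 called 1446 positive and 1086 negative. Only 3 passed when untreated replicate 2, 3 or 4 or RG2833 replicate 1, 4 or 5 was left out, and 2 without both choroid-rich libraries. Without RG2833 replicate 3 there were 3210, so the number called rests on single libraries. Markers of several cell types also had slopes on ribosomal RNA. Slopes were positive for 7 of 7 astrocyte markers, of which 5 passed, for 8 of 8 microglial markers, of which 5 passed, and for 5 of 5 endothelial markers, of which 1 passed, where 878 of 12159 genes passed in that direction. Interneuron markers had 3 positive and 3 negative slopes, with 1 passing, and markers of oligodendrocytes and their precursors 4 and 4, with 1 passing. They were negative for 7 of 11 markers of pyramidal and granule neurons, of which 1 passed, and for 7 of 7 choroid plexus markers, of which 0 passed. Summed astrocyte markers ran from 5980 to 8930 CPM in untreated and from 6780 to 9740 CPM in treated animals, and microglial markers from 535 to 994 and from 574 to 799 CPM. The part of these cell types in the histone slopes was not tested.

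Rmrp, the RNA of the RNase MRP complex, also ends without a poly(A) tail, and its slope had the opposite sign. It read 2.48, 1.33, 5.01, 2.63 and 2.77 CPM in untreated and 1.61, 1.48, 2.30, 5.07 and 4.70 CPM in treated rats. The 3 highest libraries were untreated replicate 3 and RG2833 replicates 4 and 5, which are also the 3 with the most ribosomal RNA, and the slope was 0.246 (SE 0.054, edgeR adjusted p = 0.039). Without untreated replicate 3 the slope no longer passed (adjusted p = 0.483), and the call was also lost without untreated replicate 2 or 4 or RG2833 replicate 1, 2, 4 or 5. The slope itself ran from 0.225 to 0.302 with 1 library left out. Between treatments its log2 fold change was 0.09 (SE 0.43). Terc, the telomerase RNA, had at most 1 count in a library. Of the 20 such RNAs listed, these 2 were in the table.

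The machinery that makes and handles histones gave no called treatment difference. Of 21 listed genes for the 3′ end of histone mRNA and its control, 17 were tested, 5 with a log2 fold change above 0 and 12 below, with a median of -0.037 and none past an adjusted p of 0.05 (edgeR). Slbp, whose protein binds the stem-loop, averaged 20 ± 2.41 CPM in untreated and 19.6 ± 1.91 CPM in treated rats (n = 5 each). Npat, a coactivator of histone gene transcription, was at 24.3 ± 1.26 and 23.5 ± 2.42 CPM. The smallest unadjusted p in this list belonged to Cpsf1 (log2 fold change -0.11, SE 0.06) and Wdr33 (-0.08, SE 0.06). Both belong to the general cleavage and polyadenylation complex.

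Of 30 listed histone chaperones and exchange factors, 25 were tested, 9 above 0 and 16 below, with a median log2 fold change of -0.037 and 0 called. Chaf1b, a subunit of the CAF-1 complex that places new H3 and H4 behind the replication fork, was the 1 gene of the list with an unadjusted p under 0.05 (against 2.71% of all genes in that direction). It read 2.14, 1.79, 2.15, 2.51 and 2.23 CPM in untreated and 1.29, 1.82, 1.54, 1.38 and 1.38 CPM in treated rats. The groups overlapped at untreated replicate 2 and RG2833 replicate 2 only, and the log2 fold change was -0.54 (SE 0.16, edgeR adjusted p = 0.841; two-sided exact permutation p = 0.0159). Hira, whose complex deposits the H3f3b protein, was at 98.2 ± 13.0 and 104 ± 14.4 CPM, and Anp32e, which removes H2A.Z, at 63.6 ± 4.70 and 68.9 ± 6.04 CPM (n = 5 each). Against ribosomal RNA, 3 of the 25 had a slope that passed, beside 9.83% of all genes, and each of these calls was lost in several fits that left out a library. Hira and Ubn2, another subunit of that complex, had positive slopes of 0.06 and 0.079 (edgeR adjusted p = 0.0427 and 0.039), and Rbbp7, a subunit of histone-binding complexes, a negative one of -0.04 (adjusted p = 0.0421).

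Of 30 listed S phase and proliferation genes, 27 were tested for treatment, 9 above 0 and 18 below, with a median log2 fold change of -0.084 and 0 called. Aurkb, a mitotic kinase, had the smallest unadjusted p, at 5.16 ± 3.05 CPM in untreated and 2.04 ± 1.79 CPM in treated animals (log2 fold change -1.32, SE 0.63, edgeR adjusted p = 0.841). Ccnb1, a mitotic cyclin, followed at 1.82 ± 0.382 and 1.35 ± 0.22 CPM (log2 fold change -0.42, SE 0.20). Against ribosomal RNA, 1 gene of this list passed in each direction, where 9.83% of all genes passed over both directions. They were Ccnd1, a cyclin of the first gap phase, with a slope of 0.085 and Mcm4, of the replication helicase, with one of -0.129 (edgeR adjusted p = 0.039 for both). The calls of Ccnd1, Mcm4, Hira, Ubn2 and Rbbp7 were each lost without untreated replicate 2, 3 or 4 or RG2833 replicate 1, 4 or 5, with an adjusted p of 0.483 for each without untreated replicate 3. With 1 library left out the slopes ran from 0.0537 to 0.0739 for Hira, 0.0725 to 0.0922 for Ubn2, 0.0784 to 0.0936 for Ccnd1 and -0.0435 to -0.0356 for Rbbp7. That of Mcm4 ran from -0.149 to -0.0704, the latter without untreated replicate 3.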

How the data were processed

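Left hippocampus RNA of 10 male rats was sequenced as stranded mRNA libraries, per the labels' protocols. The deposited values are RSEM expected counts per gene, which need not be whole (11.6% were not). The submitters' processing notes name bcl2fastq 2.17, Bowtie2 2.1.0, RSEM 1.2.15, edgeR and the build rn6; the annotation and filters are not given in the sources used here. The authors' normalized table of the same libraries was not used.

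Counts were rounded and fitted with edgeR 4.0.16 (R 4.3.3): filterByExpr with a minimum count of 10 and a minimum total of 15, which kept 12161 genes, TMM scaling, robust quasi-likelihood F tests and Benjamini-Hochberg adjustment over all genes at 0.05. A second fit tested the slope on the ribosomal RNA share (Rn45s, Rn28s and Rn5-8s) beside treatment, over 12159 genes without those rows. Intervals are at 95%; single genes were also compared by exact permutation over 252 regroupings. Both fits were tested on simulated data. The members and gene lists were chosen with earlier results of these data known. Genes named are the 6 of highest mean CPM in each class and those at an unadjusted p under 0.05. A fixed set of variants and 1 to 4 genes per list of smallest p are named too. Genes of textbook role (Slbp, Npat, Hira, Anp32e) and list genes with a called slope were added after values were seen. So were further S phase genes, such as Gins2, and the cell type markers named one by one. The other histone genes are named to account for the whole family. Alternatives were DESeq2 1.42.0, upper-quartile scaling, other filters, a ribosomal RNA covariate, a replicate block, and leaving out libraries. No 2 libraries were alike within sampling noise (chi-square per gene at least 7.35 over 45 pairs). P-values measure the spread between these animals only. Sequences are from RefSeq, GRCr8, matched by symbol for 10 genes and by synonym for 22, of which 4 were ambiguous; no other coordinates are given, since the counts are on rn6.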

Additional observations from a re-analysis of the deposited data

Results flagged for a closer look

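In 44 sets of 5 values (the 19 tested histone genes, both class sums and their ratio, in each group), the lowest or highest library was set against the rest, and 2 stood off by more than 0.71 of the range of their group on the log2 scale, where chance gives 2.2. Both are the library with the most ribosomal RNA, untreated replicate 3. Hist1h2bk was at 0.515 CPM there while the remaining untreated values were 0.723 to 0.807 CPM, which leaves 0.755 as the gap. Hist1h2bo was at 0.261 CPM there and at 0.922 to 1.5 CPM in the others, a gap of 0.723. These are 8.63 and 4.38 expected counts.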

How the results depend on the processing

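The treatment result, 0 histone genes at an adjusted p under 0.05, was the same under all 18 alternatives; over all genes DESeq2 gave 6 and the others 0. Genes at an unadjusted p under 0.05 numbered 688 with all libraries, 375 to 1732 when 1 library was left out and 401 with the replicate number as a block. Histone genes at that p numbered 1, against 2 with no filter (the second is Hist1h2bd, at most 7.36 counts), 2 with the ribosomal RNA covariate, 0 with the stricter filter, without both choroid-rich libraries and with the replicate block, and 0 to 1 with 1 library left out (0 in 8 of those 10 fits). The variant median ran from -0.0996 to -0.031 with 1 library left out and the replication-dependent median from -0.107 to 0.0732. Hist1h1a kept its sign wherever it was tested, from 0.355 to 0.594 with 1 library left out. The log2 fold change turned sign with the ribosomal RNA covariate for Hist1h2an (0.0122), Hist2h3c2 (0.015), Hist3h2a (0.00753) and Rmrp (-0.0911), and without both choroid-rich libraries for Hist1h2bk (-0.0134). With 1 library left out, sign changes came for H2afj (-0.0758 to 0.0302), Hist1h2an (-0.127 to 0.154), Hist1h2bk (-0.0301 to 0.191), Hist1h4b (-0.143 to 0.222), Hist2h3c2 (-0.211 to 0.188), Hist3h2a (-0.0784 to 0.0369), Slbp (-0.0831 to 0.0178) and Rmrp (-0.177 to 0.391).

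For slopes on ribosomal RNA, genes at an adjusted p under 0.05 numbered 1195, against 2532 in DESeq2, 2 without both choroid-rich libraries, 0 with the replicate block and 3 to 3210 with 1 library left out; at an unadjusted p the range was 1225 to 4970. Histone genes that passed numbered 1, against 2 in DESeq2 (Hist1h4b at -0.107, adjusted p = 0.0405, was one), 0 with upper-quartile scaling, no filter, both choroid-rich libraries left out or the block, and 0 to 3 with 1 library left out. Unadjusted, 6 became 1 without the choroid-rich libraries, 2 with the block and 0 to 7 with 1 library left out. The replication-dependent median was -0.111 with the block and -0.0778 to -0.0324 with 1 library left out. The variant median was 0.00388 with upper-quartile scaling and -0.008 to 0.00481 with 1 library left out. Signs turned for H2afj (0.0325, block), Hist2h3c2 (0.0449, block), H2afz (0.00388, upper quartile) and H2afx (0.00567 upper quartile, 0.00112 DESeq2, 0.000806 without choroid-rich libraries). With 1 library left out they turned for H2afx (-0.00565 to 0.00481), H2afz (-0.00814 to 0.0149), Hist2h2ab (-0.069 to 0.0125) and Hist2h3c2 (-0.0744 to 0.0119). The causes were not tested. All 12 replication-dependent slopes stayed negative in 9 of the 10 leave-one-out fits and without both choroid-rich libraries.

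Same-numbered libraries did not deviate together (correlations across genes -0.487 to -0.034), so the numbers were not taken as pairs. The stricter filter, a minimum count of 30, left 7 of the 12 tested replication-dependent genes and all 7 variants.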
